A study of Mus musculus with 24 samples.

Results

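The potassium channel subunits were read from every probe set whose single gene symbol starts with Kcn, without Kcnj13 and Kcnq1ot1, in the expression profiles of whole brains of 4-month-old mice. This rule gave 160 probe sets for 82 genes, of 45101 probe sets and 18193 named genes in all. The symbols Kcnmb4os1 and Kcnmb4os2 stand for RNAs of the strand opposite the Kcnmb4 gene, and the others for pore-forming or auxiliary channel subunits. A gene was represented by its brightest probe set, that with the highest mean over all 24 arrays, and 45 of the 82 genes had further probe sets. After the dimmest 40% of all probe sets were left out, 117 Kcn probe sets remained, and 64 of the 82 genes kept their brightest one. The 18 genes below this limit (a mean of 8.13 log2 units) had means of 6.09 to 8.13, and the 64 genes above it had means of 8.45 to 14.65.

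RNA of 24 samples was hybridised, 1 sample per array, in 4 groups of 6. The groups were labelled aSYN/Hsp70 (both together), aSYN, Hsp70 and wt, the wild type. The abbreviation aSYN is taken here to stand for alpha-synuclein, a presynaptic protein that aggregates in Parkinson's disease, and Hsp70 names a family of chaperones that bind misfolded proteins. Strain, sex, promoter and the way each genotype was made are not given in the labels. Nor do they say that each sample was another animal, and the spread behind the p-values may therefore be partly technical.

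Potassium channels carry potassium across the membrane and thereby set a neuron's resting potential, end its action potentials and limit its firing rate. The voltage-gated Kv families open on depolarisation, with auxiliary subunits that set their gating and their transport to the membrane, whereas inward rectifiers (Kcnj) and the leak channels (Kcnk) act near rest and calcium- and sodium-activated channels follow ion entry. In the brain, Kv1 channels line axons, Kv3 channels let neurons fire fast, Kv4 channels carry the A-type current of dendrites and Kv7 channels carry the M current that muscarinic receptors suppress.

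Values are log2(intensity + 16) after quantile normalisation. Each comparison was a contrast in 1 limma fit of all 24 arrays, and a probe set was called at an adjusted p under 0.05 over all 27022 probe sets tested. Differences are the first-named group minus the second.

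Several arrays stood apart from their groups. Array medians ran from 458 to 893 intensity units, and 4 arrays had limma weights under 0.5, namely aSYN/Hsp70 replicates 3 and 4 (0.394 and 0.124) and Hsp70 replicates 3 and 6 (0.251 and 0.332). The tissue label was checked against regional markers, and the cerebellar genes Gabra6 (granule cells) and Pcp2 (Purkinje cells) stood high in wt replicate 1, at 14.28 and 14.45. Hsp70 replicate 4 followed with 11.34 and 12.13, aSYN/Hsp70 replicate 4 with 10.46 and 11.52, wt replicate 5 with 10.30 and 10.38, and wt replicate 3 with 9.38 and 10.40. In most arrays Gabra6 lay below the dim limit of 8.13. Of the other 4 markers of the cerebellar list, Cbln3 averaged below it too, whereas Cbln1 (11.51 or more), Car8 (9.75 or more) and Calb1 (14.96 or more) were above the limit in every array and highest in wt replicate 1 as well. How much cerebellum each sample held was not tested. Prolactin (Prl) and growth hormone (Gh), pituitary genes, were highest in wt replicate 5, at 16.40 and 15.80. Y-linked and Xist probe sets put 4 aSYN/Hsp70, 2 aSYN, 3 Hsp70 and 2 wt samples on the male side. The 4 probe sets of the mouse Hsp70 genes Hspa1a and Hspa1b differed by -0.14 to 0.26 between Hsp70 and wt and by -0.49 to 0.60 between aSYN/Hsp70 and aSYN (smallest limma adjusted p = 0.422), so these probe sets did not tell the Hsp70 groups from the others.

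**Figure D1:**
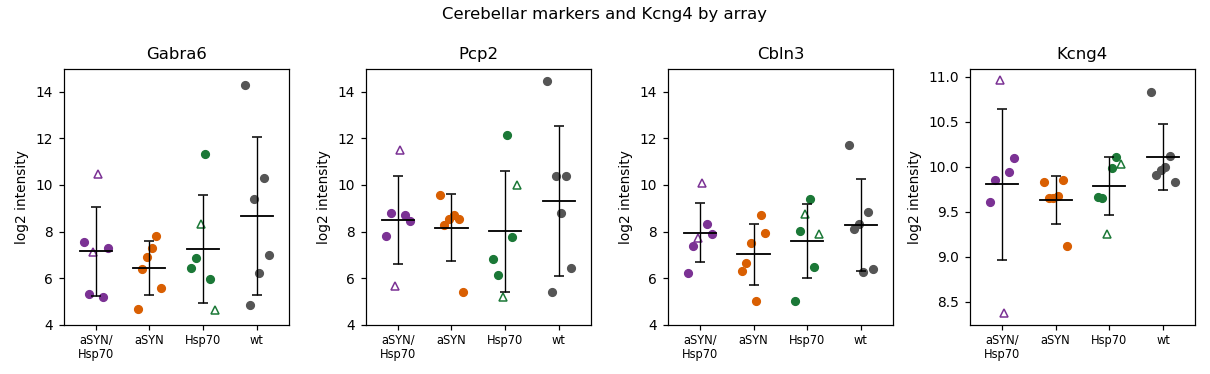
Log2 intensity (y axis) of the cerebellar markers Gabra6, Pcp2 and Cbln3 and of the Kcn gene Kcng4 in each array, with groups along the x axis and 1 point per array. The wt array of replicate 1 lies at the top of the 3 marker panels, at 14.28 for Gabra6, and at 10.83 for Kcng4 it stands above the other wt arrays. The highest Kcng4 value of all arrays is 10.96 in aSYN/Hsp70 replicate 3, where Gabra6 (7.14) and Pcp2 (5.66) are low.

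Kcnc1 and Kcna2 were the genes of the family with a called probe set, both lower in aSYN/Hsp70 than in aSYN samples. Kcnc1 encodes Kv3.1, the delayed rectifier of fast-spiking interneurons and auditory brainstem neurons, and Kcna2 encodes Kv1.2, an axonal low-threshold channel. Their promoters are shown because these are the genes on which the calls rest. Each is the RefSeq window of 250 bases before to 50 after a transcript start (GRCm38.p6), plus strand, chr7:46396218-46396517 for Kcnc1 and chr3:107101317-107101616 for Kcna2. Capitals mark the GC box (GGGCGG or its reverse complement) and the core of the cAMP response element (TGACG or its reverse complement).
Kcnc1: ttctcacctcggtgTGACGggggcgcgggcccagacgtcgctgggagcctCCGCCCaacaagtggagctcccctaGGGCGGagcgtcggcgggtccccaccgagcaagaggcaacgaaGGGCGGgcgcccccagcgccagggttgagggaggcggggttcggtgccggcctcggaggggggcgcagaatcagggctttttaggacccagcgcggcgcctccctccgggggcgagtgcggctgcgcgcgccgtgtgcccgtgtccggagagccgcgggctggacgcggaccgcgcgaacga
Kcna2: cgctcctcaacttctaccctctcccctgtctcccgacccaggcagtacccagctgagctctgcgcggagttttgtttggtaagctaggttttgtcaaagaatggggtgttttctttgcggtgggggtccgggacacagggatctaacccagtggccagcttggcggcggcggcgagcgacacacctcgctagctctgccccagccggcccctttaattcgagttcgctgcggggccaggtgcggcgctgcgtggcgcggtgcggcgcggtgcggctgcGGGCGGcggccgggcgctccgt
Kcnc1 held 3 GC boxes and 1 such core at 74.7% GC, and Kcna2 held 1 GC box at 66.7% GC, against a median of 52.67% GC over 32851 mouse windows. Searched on both strands, GGGCGG occurred in 49.43% of the 87 windows of 62 Kcn genes and in 35.66% of all windows, and TGACG in 16.09% of the Kcn windows and 20.81% of all. Neither window held CCAAT (37.41% of all windows) or TATAAA (13.62%). A match is a string of letters in this window and says nothing of binding.

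The brightest Kcnc1 probe set (1443855_at) had a lowest, median and highest value of 12.66, 12.93 and 13.23 in aSYN/Hsp70 samples, against 13.20, 13.47 and 13.64 in aSYN samples. It had 12.97, 13.11 and 13.29 in Hsp70 samples and 13.10, 13.23 and 13.66 in wt samples. The aSYN/Hsp70 samples thus lay lowest of the groups and overlapped the aSYN samples narrowly, since the highest of them (replicate 6) stood just above the lowest aSYN sample (replicate 1). The means were 12.93 ± 0.21 in aSYN/Hsp70 and 13.45 ± 0.16 in aSYN samples (SD, n = 6 each), a difference of -0.52 (SE 0.11, limma adjusted p = 0.0271).

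That call counted 1 of 64 Kcn genes, or with Kcna2 2 of 117 Kcn probe sets (1.71%), against 0.718% of all probe sets in that comparison and 0.222% called as lower. Against wt the Kcnc1 difference was -0.36 (limma adjusted p = 0.231) and against Hsp70 -0.17 (0.62). Between the aSYN and wt samples it was 0.15, between Hsp70 and wt -0.19, and neither was called. The lowest aSYN/Hsp70 values came from the low-weight arrays of replicates 4 and 3 (12.66 and 12.76), and without the 4 low-weight arrays the difference was -0.40 with a limma adjusted p of 0.1. Leaving out aSYN replicate 2, 3, 5 or 6 or aSYN/Hsp70 replicate 3 or 4 also ended the call, at adjusted p-values of up to 0.074. So did testing without the dim filter (0.0673), the replicate number as a block (0.0623) and a fit of the compared groups alone (0.134).

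The other 3 tested Kcnc1 probe sets did not show this decrease. In aSYN/Hsp70 versus aSYN they differed by 0.18 (1456944_at, limma adjusted p = 0.482), 0.05 (1423559_at, 0.904) and 0.45 (1456965_at, 0.571). The mean over the 4 probe sets differed by 0.04. aSYN/Hsp70 replicate 4, lowest for 1443855_at, was the highest of all arrays for 1456944_at, at 13.36. Which part of the transcript each probe set reads was not checked here. Whether the difference of 1443855_at belongs to total Kcnc1 RNA, to 1 of its forms or to this probe set alone was not tested.

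For Kcna2 the called probe set was the dimmer 1439872_at. Its lowest, median and highest values were 12.83, 13.04 and 13.26 in aSYN/Hsp70 samples, against 13.39, 13.52 and 13.68 in aSYN samples. Hsp70 samples had 13.21, 13.47 and 13.70, and wt samples 13.15, 13.24 and 13.60. Every aSYN/Hsp70 sample lay below every aSYN sample, and 5 of the 6 lay below the Hsp70 range. The means were 13.05 ± 0.15 in aSYN/Hsp70 and 13.51 ± 0.11 in aSYN samples (SD, n = 6 each), a difference of -0.46 (SE 0.10, limma adjusted p = 0.0271).

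The aSYN difference of this probe set was -0.41 with Hsp70 (aSYN/Hsp70 minus Hsp70) and 0.20 without it (aSYN minus wt), an interaction of -0.61 (SE 0.13, limma adjusted p = 0.107). Without the 4 low-weight arrays aSYN/Hsp70 differed from aSYN by -0.46, with a limma adjusted p of 0.042. The call was lost without aSYN replicate 2, 3 or 6 or aSYN/Hsp70 replicate 4, with sex as a covariate (adjusted p = 0.0566), with the dim probe sets kept (0.0714) and in a fit of the compared groups alone (0.102). Without wt replicate 1 in addition to the low-weight arrays the adjusted p was 0.0513, and the mean over the Kcna2 probe sets differed by -0.0991 (0.507). The brightest Kcna2 probe set (1440759_at) differed by -0.17 in the same comparison (limma adjusted p = 0.322), and the dimmest tested (1422197_at) by 0.34 (0.17).

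**Figure D2:**
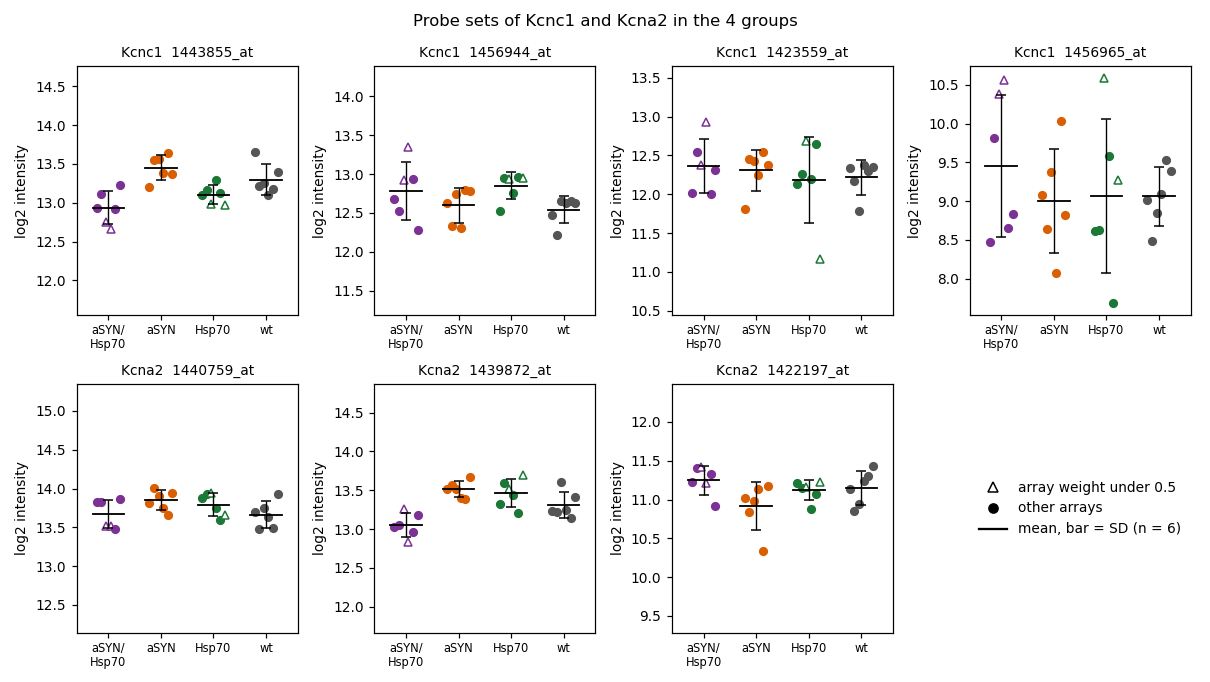
Log2 intensity (y axis) of the 4 tested Kcnc1 and 3 tested Kcna2 probe sets in the 24 arrays, by group. Points are arrays, open triangles are the 4 arrays of weight under 0.5, and lines and bars are means and SD; the aSYN/Hsp70 points sit lowest for Kcnc1 1443855_at and Kcna2 1439872_at and not for the other probe sets of either gene.

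The other Kv3 genes went with or against Kcnc1 without a call. Kcnc2 (Kv3.2, found in fast-spiking interneurons and thalamocortical neurons) had 12.01, 12.83 and 13.05 in aSYN/Hsp70 samples, against 12.90, 13.07 and 13.33 in aSYN and 12.93, 13.10 and 13.21 in wt samples. The aSYN/Hsp70 range reached lowest and overlapped both others, with differences of -0.35 from each (limma adjusted p = 0.179 against aSYN and 0.306 against wt). Kcnc4 (Kv3.4) had 12.02, 12.25 and 12.47 in aSYN/Hsp70 and 11.75, 12.02 and 12.25 in wt samples, 0.26 higher (adjusted p = 0.304), again with overlap. Its dimmer probe set 1425089_at did not show this increase, with 9.82 to 10.93 in aSYN/Hsp70 and 10.29 to 10.92 in wt samples. Across the alternative settings, single arrays left out aside, the Kcnc4 difference ran from 0.05 to 0.27.

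Among the 6 tested Kv1 genes, Kcna5 (Kv1.5, known best from heart atria in humans) came nearest to a call after Kcna2. It had 10.21, 10.57 and 10.71 in aSYN/Hsp70, 10.86, 11.03 and 11.30 in aSYN, 10.27, 10.85 and 10.98 in Hsp70 and 10.33, 10.82 and 11.27 in wt samples. The aSYN/Hsp70 and aSYN samples did not overlap, and the difference of -0.52 (SE 0.14) had a limma adjusted p of 0.0807, which fell to 0.0495 without aSYN/Hsp70 replicate 6. By their brightest probe sets, Kcna1 (Kv1.1, a partner of Kv1.2 in axons) differed by 0.02 between these groups, and Kcna3, Kcna4 and Kcna6 by 0.03 to 0.19. The dimmer Kcna4 probe set 1438613_at had 6.47 (replicate 4) to 11.09 in aSYN/Hsp70 and 10.40 to 11.21 in aSYN samples. For Kcna6, the dimmer 1421568_at had 10.28 to 11.16 in aSYN/Hsp70 and 9.99 to 10.57 in aSYN samples. In the interaction 5 of 6 Kv1 genes were negative (median -0.15), as were 40 of all 64 Kcn genes and 6969 of all 12929 genes tested.

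Kcng2 encodes Kv6.2, a modifier that is silent alone and changes the gating of Kv2 channels. Its values were 8.11, 9.77 and 10.18 in aSYN/Hsp70, 9.86, 10.07 and 10.22 in aSYN, 9.66, 10.14 and 10.55 in Hsp70 and 9.26, 9.71 and 10.04 in wt samples. All groups overlapped, and the SD of 0.72 in aSYN/Hsp70 samples came with 1 low array (replicate 2). Its difference of -0.60 between aSYN/Hsp70 and Hsp70 (limma adjusted p = 0.429) and interaction of -0.96 (SE 0.34, 0.441) were not called, and without that array the difference from Hsp70 was -0.31. The other 7 genes of this group had interactions between -0.43 and 0.50.

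The Kv7 genes were both lower in aSYN/Hsp70 than in aSYN samples, without a call. For Kcnq3 the values were 13.50, 13.87 and 14.18 in aSYN/Hsp70 and 14.10, 14.21 and 14.33 in aSYN samples, a difference of -0.36 with a small overlap (limma adjusted p = 0.147). Kcnq3, which the naming rule did not pick, was named after its values were seen. Kcnq5 had 11.76, 11.98 and 12.19 in aSYN/Hsp70, 12.03, 12.20 and 12.83 in aSYN, 12.15, 12.39 and 12.61 in Hsp70 and 11.62, 12.09 and 12.43 in wt samples. The ranges of aSYN/Hsp70 and Hsp70 samples barely met, with a difference of -0.38 (limma adjusted p = 0.387), and the Kcnq5 interaction was -0.60 (SE 0.19, 0.379). Its dimmer probe sets had interactions of 0.04 and -0.20.

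Of the 3 Kv4 genes, Kcnd3 (Kv4.3) differed by 0.18 between aSYN/Hsp70 and aSYN (limma adjusted p = 0.206), with overlapping values of 13.35, 13.46 and 13.75 in aSYN/Hsp70 and 13.23, 13.33 and 13.42 in aSYN samples. A dim Kcnd3 probe set (1442555_at) went the other way, by -1.24 (SE 0.44, 0.148). The KChIP subunits encoded by Kcnip genes bind calcium and bring Kv4 channels to the surface. Kcnip2 had 13.89, 14.07 and 14.25 in aSYN/Hsp70 against 13.62, 13.71 and 14.02 in aSYN samples, 0.30 higher with overlap (SE 0.10, limma adjusted p = 0.116), and its values in Hsp70 and wt samples were 13.98, 14.12 and 14.31, and 13.75, 13.98 and 14.27.

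Kcnip1 had 11.95, 12.19 and 12.58 in aSYN/Hsp70, 11.70, 11.87 and 12.10 in aSYN, 11.59, 11.97 and 12.21 in Hsp70 and 11.78, 11.86 and 12.29 in wt samples. Its aSYN/Hsp70 values were the highest and overlapped each other group, at 0.38 above aSYN (limma adjusted p = 0.139) and 0.32 above Hsp70 (0.44). The dimmer probe sets of Kcnip1 and Kcnip2 differed by 0.04 and 0.02 between aSYN/Hsp70 and aSYN. Of the cytoplasmic beta subunits, Kcnab1 differed by -0.20 and Kcnab3 by 0.22 between Hsp70 and wt samples (limma adjusted p = 0.881 for both), and Kcnab2 by 0.06. Kcne1l, the single-span subunit also named Kcne5, had 8.43, 9.07 and 9.85 in aSYN/Hsp70 and 9.58, 9.73 and 10.04 in aSYN samples, a difference of -0.64 (SE 0.22, 0.138) with overlap.

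Kcnh3 encodes Kv12.2, an ELK channel of forebrain neurons. Its values were 12.37, 12.64 and 13.52 in aSYN/Hsp70, 12.22, 12.34 and 12.41 in aSYN, 12.33, 12.70 and 13.09 in Hsp70 and 11.79, 12.43 and 12.58 in wt samples. The aSYN/Hsp70 and Hsp70 samples reached higher than aSYN samples and overlapped wt samples, and the difference was 0.44 between aSYN/Hsp70 and aSYN (limma adjusted p = 0.175) and 0.36 between Hsp70 and wt (0.881). Of the 2 dimmer tested Kcnh3 probe sets, 1459107_at gave 0.48 and 0.44, and 1421619_at gave -0.01 and 0.0047. Without the 4 low-weight arrays and wt replicate 1 the Hsp70 difference was 0.08. The other 4 tested Kcnh genes differed between aSYN/Hsp70 and aSYN by -0.46 (Kcnh7) to 0.32 (Kcnh2, an ERG channel), and none was called.

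Among the 10 tested inward rectifiers, Kcnj4 (Kir2.3, a strong rectifier of forebrain neurons) had 10.46, 11.30 and 11.89 in aSYN/Hsp70, 10.58, 10.74 and 11.04 in aSYN, 10.48, 10.86 and 11.18 in Hsp70 and 10.47, 10.65 and 10.90 in wt samples. Its aSYN/Hsp70 samples spread widest, from the lowest value of all to the highest, and averaged 0.56 above wt (SE 0.17, limma adjusted p = 0.248). The G protein-gated subunits Kcnj3 and Kcnj9 (GIRK1 and GIRK3), named after their values were seen, differed between aSYN/Hsp70 and aSYN by -0.64 (SE 0.26, 0.187) and -0.63 (SE 0.27, 0.212). Kcnj3 stood at 10.26 in aSYN/Hsp70 replicate 4, and the groups overlapped for both genes. The dimmer Kcnj3 probe set 1421468_at did not show this decrease, with 10.38 to 11.59 in aSYN/Hsp70 and 10.82 to 11.34 in aSYN samples. Another, 1444025_at, had 9.55 (replicate 4) to 11.32 in aSYN/Hsp70 and 10.73 to 11.49 in aSYN samples. Kcnj10 (Kir4.1), the main potassium buffer of astrocytes, differed by -0.16 with an adjusted p of 0.759, and the GIRK2 gene Kcnj6 by 0.24 (0.628).

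In the Kcnk leak channels, Kcnk6 was the member with the smallest p in aSYN versus wt. It had 9.52, 10.35 and 10.62 in aSYN and 9.62, 9.81 and 10.05 in wt samples, with 1 low aSYN array (replicate 5) and a difference of 0.44 (SE 0.16, limma adjusted p = 0.67). Kcnk3 encodes TASK-1, an acid-sensitive leak channel, and had 8.76, 10.15 and 10.53 in aSYN/Hsp70, 10.26, 10.46 and 10.76 in aSYN, 9.97, 10.22 and 10.82 in Hsp70 and 9.85, 10.27 and 10.37 in wt samples. Its interaction was -0.74 (SE 0.32, 0.573), from groups that overlapped. Kcnk1 (TWIK-1) had 14.23, 14.51 and 14.58 in aSYN and 14.39, 14.63 and 14.84 in wt samples, a difference of -0.16 (0.968).

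Calcium- and sodium-activated channels gave no call in any comparison. All 8 tested members were lower in aSYN/Hsp70 than in Hsp70 samples, by a median of -0.13 and with 0 of 8 at an unadjusted p under 0.05 in limma. Among them were Kcnma1, the pore of the BK channel (-0.03), Kcnn2, an SK channel (-0.07), and Kcnt2, a sodium-activated channel (-0.43). In aSYN/Hsp70 versus Hsp70, 40 of all 64 Kcn genes and 6744 of all 12929 genes tested were lower. An unadjusted limma p under 0.05 was found there for 8.33% of all genes. Kcnmb2, a BK beta subunit, differed by -0.33 between aSYN/Hsp70 and aSYN (limma adjusted p = 0.211). Kcnmb4os2, on the strand opposite the BK subunit gene Kcnmb4, had 8.92, 9.21 and 9.76 in aSYN/Hsp70, 9.23, 9.94 and 10.25 in aSYN, 9.35, 9.72 and 10.55 in Hsp70 and 9.55, 9.91 and 10.14 in wt samples. The aSYN/Hsp70 samples reached lowest and overlapped each other group, at -0.62 from aSYN (0.126), -0.60 from Hsp70 (0.38) and -0.57 from wt (0.283). Kcnmb4 itself differed by 0.06 from aSYN, and without the low-weight arrays and wt replicate 1 the Kcnmb4os2 difference from Hsp70 was -0.15.

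**Figure D3:**
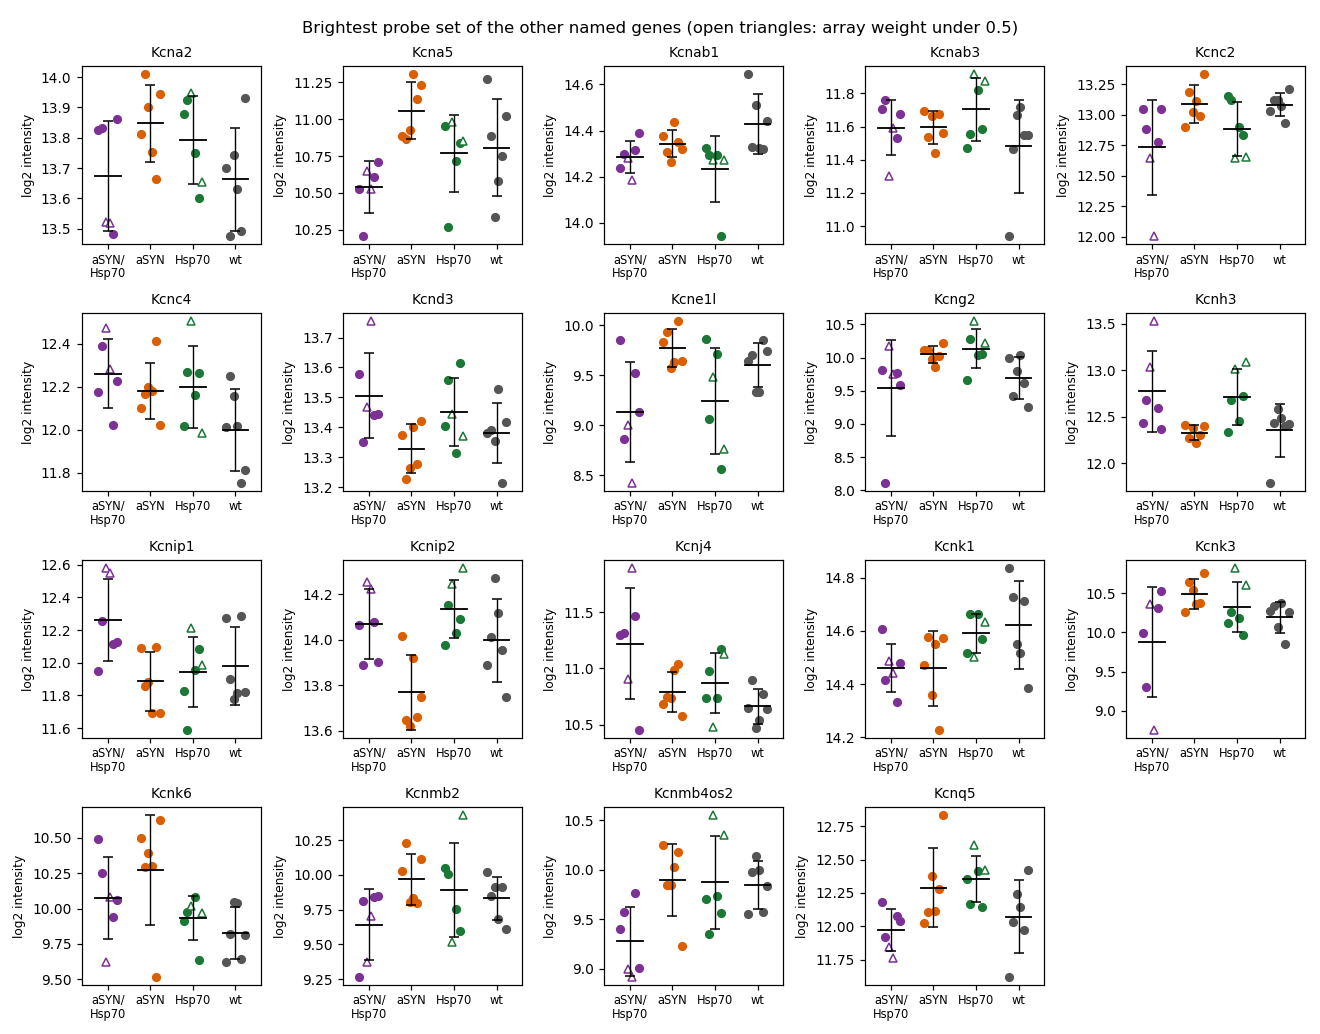
Log2 intensity (y axis) of the brightest probe sets of the 18 other named genes and of Kcna2 in the 24 arrays, by group, with means as lines, SD as bars and open triangles for arrays of weight under 0.5. The aSYN/Hsp70 ranges meet those of aSYN samples in most panels, and Kcna5 is lower in all 6 aSYN/Hsp70 samples than in the 6 aSYN samples.

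Outside the naming rule, and picked after their values were seen, a few more members stood out by size in 1 comparison. Kcnv1 (Kv8.1, a silent modifier) had 11.89, 12.06 and 12.50 in aSYN/Hsp70 and 10.90, 11.85 and 12.16 in wt samples, 0.37 apart (limma adjusted p = 0.332), with its lowest wt value in replicate 1. Kcnd2 (Kv4.2), the main dendritic A-type channel, had 12.73, 13.58 and 13.84 in aSYN/Hsp70 and 13.66, 13.72 and 14.09 in wt samples, a difference of -0.31 (0.341) from overlapping groups. Kcns3, a modifier of Kv2 channels, had 8.21, 9.27 and 9.85 in aSYN/Hsp70 and 6.48, 8.93 and 9.95 in Hsp70 samples. Its difference of 0.59 (SE 0.42, limma adjusted p = 0.671) was the highest of the 64 genes in that comparison, and the groups overlapped, with replicate 5 the low Hsp70 sample.

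Among the 18 genes below the dim limit, for which no difference was tested and of which a few are named after their values were seen, were Kcnq1 (7.91), Kcne1 (6.09) and Kcne3 (6.71), subunits of Kv7.1 channels of heart and epithelia, and Kcnj1 (6.92), the secretory channel of the kidney. Kcnh8 lay at the limit (8.13), and Kcnj14 (8.45) was the member just above it. The SK channel Kcnn3 (6.83) and the GIRK subunit Kcnj5 (6.86) were below it as well. A mean under the limit is a low signal of these probe sets and does not show that the gene is silent in the brain.

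The array with the lowest weight, aSYN/Hsp70 replicate 4, held an end of the aSYN/Hsp70 range for many of these genes. It was lowest for the called probe sets of Kcnc1 and Kcna2, for Kcnc2 (12.01), Kcnk3 (8.76) and Kcnj3 (10.26), and highest for Kcnh3 (13.52) and Kcnj4 (11.89). Without the 4 low-weight arrays the Kcnc2 difference from wt was -0.14 where it was -0.35 with them, that of Kcnj4 was 0.47, and the Kcnk3 interaction was -0.40. Kcnq5 then differed from Hsp70 by -0.22 and Kcne1l from aSYN by -0.43. None of these was called with or without them.

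Over the family, the comparison of aSYN/Hsp70 with aSYN held the most unadjusted differences. Of the 64 genes 31 were higher and 33 lower, with a median of -0.01, against -0.01 over all 12929 genes tested. At an unadjusted p under 0.05 in limma stood 6 higher and 12 lower Kcn genes, 28.1% of 64, against 18.1% of all genes and 19.6% of all probe sets (8.76% higher and 10.9% lower). The 12 lower ones were Kcnc1, Kcna5, Kcnmb4os2, Kcne1l, Kcnq3, Kcnk3, Kcnc2, Kcnj3, Kcnq5, Kcnmb2, Kcnj9 and Kcng2, and the 6 higher ones Kcnip2, Kcnip1, Kcnh2, Kcnh3, Kcnj4 and Kcnd3, chosen here by this p alone. Kcnc1 passed the adjustment over all probe sets, and the others did not. Counted by probe set, 26 of the 117 tested for Kcn genes (22.2%) had an unadjusted limma p under 0.05, nearer to the 19.6% of all probe sets.

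Marker lists of regions and cell types were read in the same comparison, aSYN/Hsp70 versus aSYN, where 2 markers of 12 lists were called. Of all 12929 genes tested there, 19 were called as higher and 24 as lower. Without regard to calls, 6181 of them were higher and 6748 lower. The 6 thalamus markers were all lower in aSYN/Hsp70 (median -0.30), with summed intensities of 24699 to 41297 in aSYN/Hsp70 and 39101 to 44619 in aSYN samples. All 5 oligodendrocyte markers were lower (median -0.16, sums of 218167 to 294944 against 256774 to 299129), as were 6 of 7 striatum markers (53610 to 59263 against 57665 to 68794). Of 5 tested olfactory bulb markers 4 were higher (median 0.83, sums of 11398 to 28284 against 11280 to 15293), whereas the 6 neuron markers split 3 and 3 with a median of 0.00. The called markers were 1 of 7 tested for dopamine neurons (5 lower, median -0.28, sums of 22125 to 26970 against 24125 to 32918) and 1 of 6 for endothelium and mural cells (5 lower, median -0.03, sums of 28384 to 33695 against 26329 to 31671). Of the choroid plexus markers 5 of 6 were lower (median -0.20, sums of 133257 to 183078 against 175270 to 196036), and all 3 tested pituitary markers were higher (median 1.00, sums of 1119 to 31180 against 1486 to 2711). Astrocyte markers were higher in 4 of 6 (median 0.13), microglia markers in 3 of 6 (0.06) and cerebellar markers in 2 of 4 tested (0.03). Array 3′ minus 5′ signals of control transcripts averaged 0.85 ± 0.09 log2 units in aSYN/Hsp70 and 0.97 ± 0.08 in aSYN samples (SD, n = 6 each). The part of these shifts in the Kcn differences was not tested, and in bulk tissue fewer cells of a type and less RNA per cell cannot be told apart.

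**Figure D4:**
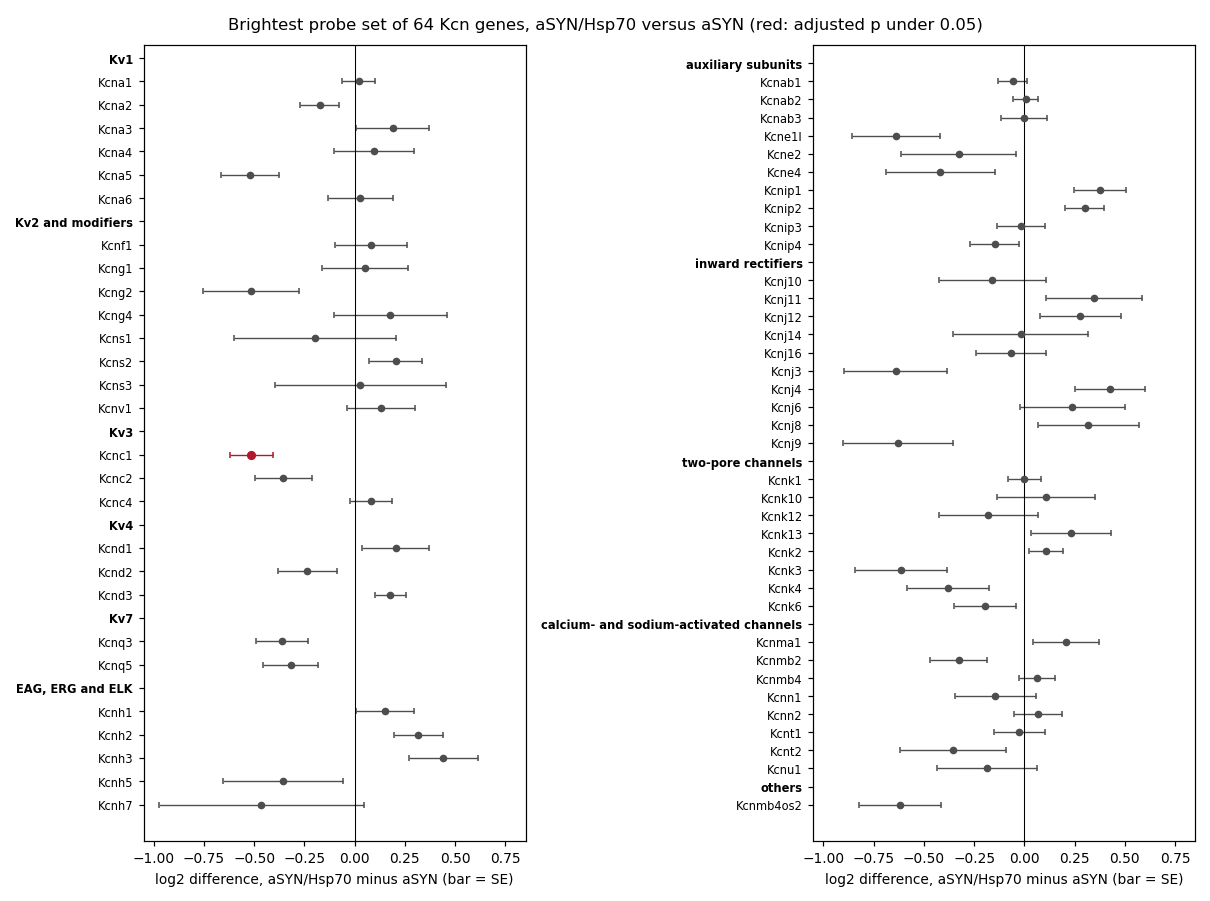
Log2 difference, aSYN/Hsp70 minus aSYN (x axis), with SE as bars, for the 64 tested Kcn genes by role. Points to the left of 0 are lower in aSYN/Hsp70; Kcnc1 at -0.52 is the called gene, and 33 of the 64 genes lie left of 0.

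Against wt, aSYN/Hsp70 samples had 29 Kcn genes higher and 35 lower, with 0 called by limma, where 0% of all probe sets were called. At an unadjusted p under 0.05 stood 5 higher and 5 lower, together 15.6% of 64 genes, against 14.6% of all genes and 14.5% of all probe sets. Leaving out wt replicate 1, the array with the highest cerebellar markers, the count of calls was again 0 and the family median was -0.03, compared with -0.02 when it was kept.

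The aSYN samples differed from wt with 0 Kcn calls, where 0.0037% of all probe sets were called by limma, and 2 of 64 genes had an unadjusted p under 0.05 (3.13%, against 4.39% of all genes and 5.17% of all probe sets). They were Kcnk6 and Kcnip2, the KChIP gene with a difference of -0.23 (adjusted p = 0.857). The family median of 0.03 moved to -0.00103 without wt replicate 1. The Hsp70 samples had 0 calls against wt, where 0% of all probe sets were called. Again 2 of 64 genes stood at that unadjusted p (Kcnab1 and Kcnh3), 3.13% against 4.73% of all genes and 4.83% of all probe sets. Here 40 genes were higher and 24 lower, with a median of 0.06, and 0.06 also without wt replicate 1.

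Between aSYN/Hsp70 and Hsp70 samples 24 Kcn genes were higher and 40 lower with a median of -0.07, against -0.01 for all genes, and 0 were called by limma, as were 0% of all probe sets. Unadjusted, 4 of 64 passed (6.25%, against 8.33% of all genes and 9.62% of all probe sets). The interaction had the same split of 24 and 40 and a median of -0.09, against -0.02 for all genes. It gave 0 Kcn calls in limma, with 0% of all probe sets called, and 8 genes at an unadjusted p under 0.05 (12.5%, against 6.26% of all genes and 8.13% of all probe sets). The F test of any difference among the groups called 0 of 64 Kcn genes and 0.0148% of all probe sets. Its unadjusted p was under 0.05 for 9 of the 64 Kcn genes. By probe set these were 16 of 117 for Kcn genes, against 12.9% of all probe sets. Kcnc1 had the smallest adjusted F test p of the family, 0.106. The comparisons share samples, so these counts are not independent of one another.

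Probe sets of the same Kcn gene often differed in direction. Of the 53 dimmer tested probe sets, 29 had the sign of their gene's brightest in aSYN/Hsp70 versus aSYN (54.7%), against 55.4% over all 10661 such probe sets. In Hsp70 versus wt it was 20 of 53 (37.7%, against 56.7%), and in aSYN versus wt 34 of 53 (64.2%, against 58.7%).

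Channel partners, anchors and receptors that act through these channels gave 0 calls in limma in any comparison, from a list of 38 genes of which 28 were tested. In aSYN/Hsp70 versus aSYN 6 were higher and 2 lower at an unadjusted p under 0.05, 28.6% of the 28, against 18.1% of all genes and 19.6% of all probe sets. Gnb1, the G protein beta subunit whose complex opens GIRK channels, averaged 14.74 ± 0.19 in aSYN/Hsp70, 13.85 ± 0.82 in aSYN, 13.37 ± 0.82 in Hsp70 and 12.92 ± 0.37 in wt samples (SD, n = 6 each), 1.82 above wt (SE 0.34, limma adjusted p = 0.154). Gpr158, a receptor that recruits RGS proteins, was 0.48 higher in aSYN/Hsp70 than in aSYN samples (0.116), the smallest adjusted p of a partner in the 6 comparisons. Its mean was lowest in aSYN samples, at 10.21 ± 0.27 (SD, n = 6 each). The aSYN/Hsp70, Hsp70 and wt means were 10.69 ± 0.23, 10.66 ± 0.39 and 10.78 ± 0.12. Gnb1 and Gpr158 were named after their values were seen.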

How the data were processed

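The 24 samples were hybridised to 1-colour Affymetrix arrays. The deposited values are intensities, 1 per probe set and array, on a linear scale; the sources used here do not name the program that made them. In the deposited table the mean intensity without the lowest and highest 2% was the same on all arrays, so the authors had scaled each by 1 factor. Gene names came from the platform annotation, and all Kcn symbols matched a mouse gene table of GRCm38.p6. Promoter sequences are RefSeq's.

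Intensities were transformed as log2(intensity + 16), which understates differences of dim probe sets, and quantile normalised. The 64 control probe sets and the 18015 dimmest were left out. The remaining 27022 were fitted with 1 mean per group over all 24 arrays (limma 3.58.1, R 4.3.3, lmFit and eBayes), with Benjamini-Hochberg adjustment over all of them within each comparison. The interaction subtracts the aSYN difference without Hsp70 from that with it. The fit was tested on simulated arrays. The number of arrays limits the precision.

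The members, role groups and gene lists were chosen with earlier results of these data known. Named were genes with a called probe set, the 5 smallest p-values in each of the 6 comparisons, and the smallest F test p in each role group; names outside this rule are marked. Alternatives were no quantile normalisation, offsets of 1 and 256, no dim filter, a replicate block, a fit of the compared groups alone, array weights, the 4 low-weight arrays left out, a sex covariate, a trended and robust variance, the mean over a gene's probe sets, and each array left out in turn. Leaving out the low-weight arrays together with wt replicate 1 was added after seeing the data. No 2 arrays correlated above 0.978 (Spearman), so none was taken for a duplicate. Same-numbered samples did not deviate together (36 pairs, r from -0.148 to 0.193, 3 over 0.1), so the numbers were not taken to pair samples. Figures were drawn with matplotlib 3.10.9.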

Additional observations from a re-analysis of the deposited data

Results flagged for a closer look

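Among the 21 named probe sets, 84 groups of 6 were searched for a lowest or highest array far from the others, and 8 were found, where chance gives about 1 in 20. Every one was a lowest array. The same share over all probe sets was not counted, so whether 8 is more than these arrays give for other genes was not tested. Kcna5 stood at 10.21 in aSYN/Hsp70 replicate 2 and at 10.27 in Hsp70 replicate 2, and Kcng2 at 8.11 in aSYN/Hsp70 replicate 2. Kcnk6 stood at 9.52 in aSYN replicate 5 and at 9.63 in Hsp70 replicate 5, where Kcnab1 stood at 13.94. Kcnab3 at 10.94 and Kcnh3 at 11.79 were low in wt replicate 1, the array with the highest cerebellar markers.

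For 3 items the samples of a pair of groups lay wholly on opposite sides of the means they were set against, and limma's interaction did not pass for any. Every aSYN sample lay above the wt mean and every aSYN/Hsp70 sample below the Hsp70 mean for the Kcna2 probe set 1439872_at (interaction -0.61, adjusted p = 0.107) and for Kcna5 (-0.48, 0.561). Every Hsp70 sample lay above the wt mean and every aSYN/Hsp70 sample below the aSYN mean for Kcnq5 (-0.60, 0.379). Kcna5 and Kcnq5 were named in part for their small interaction p in limma, and the Kcna2 probe set for its call in aSYN/Hsp70 versus aSYN. That choice favours such a pattern, and its share over all probe sets was not counted.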

How the results depend on the processing

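The count of Kcn genes called in aSYN/Hsp70 versus aSYN, 1 as reported, was 0 without the dim filter, with only the groups compared, without the low-weight arrays (with or without wt replicate 1) and with the mean over a gene's probe sets, and it ran from 0 to 3 with arrays left out in turn, at 3 without aSYN/Hsp70 replicate 6. With the replicate number as a block the count was 0 and the Kcnc1 adjusted p 0.0623, while that of the Kcna2 probe set was 0.0197; the block changed no other call. All other counts were 0 throughout. Under the mean over probe sets, Kcnc1 reversed to 0.0429 against aSYN and to 0.103 against wt, and in Hsp70 versus wt Kcnab3 reversed to -0.138 and Kcnq5 to -0.124. Averaging brings in the dimmer probe sets of the gene.

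The median Kcn difference moved beyond the spread between arrays (SD 0.042) in Hsp70 versus wt (0.06 as reported) to 0.113 without quantile normalisation and 0.0067 with the mean over probe sets. In aSYN/Hsp70 versus wt (-0.02) it moved to 0.0232, -0.0700 and, without the low-weight arrays and wt replicate 1, -0.0775. In aSYN/Hsp70 versus aSYN (-0.01) it was -0.0599 without the low-weight arrays, whether or not wt replicate 1 was left out too, and -0.0728 with the mean over probe sets. With arrays left out the interaction median ran from -0.117 to -0.0432, the last without wt replicate 1. For these moves the cause was not tested. Over all settings other than single arrays left out, 353 of 367 values of named genes kept their direction and side of the threshold. Kcnc1 lost its call in 6 settings, and dim genes near the added 16 are measured least well.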

Other observations

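The wt array with the highest cerebellar markers (replicate 1) differed from the other wt arrays in many Kcn genes. For 36 of the 64 tested genes (56.3%) its value lay outside the range of the other 5 wt arrays, against 38.6% of all 12929 genes. The same counts for the other wt arrays, each set against the rest, ran from 14.1% to 37.5% of Kcn genes and from 21.2% to 39.6% of all genes. These genes and this array were chosen after the values were seen, so the values are a description of 1 array.

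Lowest against the median of the other wt arrays were Kcnh7, an ERG channel (-2.63), the Kv2 modifier Kcns1 (-1.93), Kcnh5, an EAG channel (-1.43), and the modifier Kcnv1 (-1.06). Kcnh3 (-0.64) and the beta subunit Kcnab3 (-0.61) followed. Highest were the Kv2 modifier Kcng4 (0.87), the inward rectifier Kcnj12 (0.69), the leak channel Kcnk10 (0.60), Kcna5 (0.52), Kcnip1 (0.46) and Kcnc1 (0.44). In Hsp70 replicate 4, whose Gabra6 was the second highest of the arrays, Kcng4 stood 0.33 and Kcnc1 0.19 above the median of the other Hsp70 arrays, and Kcnh7 stood at -0.59 from it. Kcnk10 (0.26), Kcnh5 (-0.41) and Kcnh3 (-0.28) also went in the direction of wt replicate 1. Others did not follow wt replicate 1 there, since Kcns1 and Kcnv1 stood at -0.02 and -0.03, Kcnab3 at 0.24, Kcna5 at -0.14, Kcnj12 at -0.11 and Kcnip1 at -0.04. In aSYN/Hsp70 replicate 4 (array weight 0.124), the third highest for Gabra6, Kcng4 (8.37) and Kcnc1 (12.66) were the lowest of their group. Kcnh3 (13.52) was the highest, and all of these went against wt replicate 1. Kcnh7 (6.22) and Kcnh5 (8.23) were also lowest there and Kcnj12 (10.60) highest, in the direction of wt replicate 1. Kcna5, Kcnab3 and Kcnip1 were at neither end of the group.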
